A study of Mus musculus with 24 samples.

Results

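The transcripts described here are 9 genes of the B cell lineage, Cd79a, Cd79b, Blnk, Ms4a1, Cr2, Fcmr, Ly86, Spib and Pax5, read in samples that were selected for T cells. They were chosen by name, and all 9 had a probe on the arrays, out of 24124 genes named there. Together they had 12 probes, because Cd79a, Cr2 and Pax5 had 2 probes each. Fcmr stood under its older name, Faim3.

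The samples were OT-I CD8+ T cells, whose transgenic T cell receptor recognises an ovalbumin peptide, from a mouse model of acute graft-versus-host disease. Recipients were female and of the strain C57Bl/6-Tg(CAG-OVA)-916Jen/J (m-act OVA), in which the broadly active CAG promoter drives ovalbumin. They were given 11 Gy of total body irradiation in 2 fractions, then 3000000 bone marrow cells and 15000000 splenocytes of OT-I donors (C57BL/6-Tg(TcraTcrb)1100Mjb/J). Only the grafted OT-I CD8+ T cells carried CD45.1, and every other graft cell and the recipients carried CD45.2. The control group is the graft on day 0, with 4 arrays, and the other groups are cells taken on day 4 from blood, liver, lung and small intestine, with 5 arrays each. All groups, the graft included, were enriched on a magnetic column by binding of an anti-CD45.1 antibody, and the labels give an age of 8 to 16 weeks for all mice. From each sample 300 pg of RNA was amplified in 2 linear rounds and labelled with Cy3. The labels do not say that samples of a group came from separate animals, so p-values here reflect how far these samples spread, which may be technical.

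B cells recognise antigen through surface immunoglobulin, which signals through the heterodimer of CD79A and CD79B. The adaptor BLNK carries that signal from the kinase SYK to its targets, and CD20 (Ms4a1), complement receptor 2 (Cr2) and the IgM Fc receptor (Fcmr) are other surface proteins of mature B cells. LY86, also called MD-1, is the partner of the Toll-like protein CD180, PAX5 is the transcription factor that commits cells to the lineage, and SPIB is an ETS family transcription factor of B cells and plasmacytoid dendritic cells. Most of these proteins are not known as products of CD8+ T cells, and LY86 is also made by macrophages and dendritic cells.

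Probe positions bear on how the values can be read, and some probe and promoter sequences are given beside them. The 2 Cd79a probes do not carry the same coordinates. On mm9, the build of the array annotation, the second probe spans chr7:25684357-25684614 on the plus strand, which is 258 bases for a probe of 60 bases. The brighter one is annotated as Cd79a through a cDNA clone but lies at chr12:53180558-53180617 (plus strand). Which transcript the brighter probe reads was not checked here, so its values are those of a probe annotated as Cd79a. The second probe is shown because its coordinates span more than its 60 bases and it has a reading frame without a stop. The first Pax5 probe, on chr4:44550354-44582908 (minus strand), is shown for the same reason. Pax5 was not detected with it in any group. Both are given as the array annotation lists them.
Cd79a second probe: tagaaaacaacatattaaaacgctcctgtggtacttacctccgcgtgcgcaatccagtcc
Pax5 first probe: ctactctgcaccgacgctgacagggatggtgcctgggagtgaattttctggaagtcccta

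Promoters of 7 of the 9 genes were found in the RefSeq table (GRCm38.p6), and those of Cd79b and Ms4a1 were not used here. The 250 bases before the start were searched on both strands for 2 words known from B cell promoters, the ETS word AGGAAGT and the octamer ATTTGCAT, which do not overlap in these windows. The ETS word stood in 2 of the 7 windows, Cd79a and Blnk, and in 7.69% of all 32851 promoter windows of that length. The octamer stood in 1 window, that of Blnk, against 1.6% of all windows. The windows with a match are printed with the words in capitals, and whether the words bear on the values that follow was not tested. The Cd79a window is chr7:24897247-24897496 (plus strand) and the Blnk window is chr19:40994222-40994471 (minus strand). The Cd79a word lies 55 to 49 bases before the start. In Blnk the ETS word lies 202 to 196 bases and the octamer 130 to 123 bases before it.
Cd79a upstream: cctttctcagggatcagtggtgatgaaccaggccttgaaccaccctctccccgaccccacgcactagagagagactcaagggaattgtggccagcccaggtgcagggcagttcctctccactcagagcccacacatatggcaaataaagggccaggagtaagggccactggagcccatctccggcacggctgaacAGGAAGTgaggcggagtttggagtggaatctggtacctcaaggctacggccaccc
Blnk upstream: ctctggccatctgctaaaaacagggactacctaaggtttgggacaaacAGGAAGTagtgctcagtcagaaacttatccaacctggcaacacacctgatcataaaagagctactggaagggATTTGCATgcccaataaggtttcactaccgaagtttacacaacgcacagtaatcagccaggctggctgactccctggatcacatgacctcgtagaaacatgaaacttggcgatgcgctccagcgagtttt
These matches describe the letters in the windows and nothing about which factor was bound.

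Values are log2 of the background-subtracted spot signal minus the 75th percentile of each array, so 0 is the level of a probe at that percentile. Levels of different probes are not compared. A spot is called well above background by a flag of the scanner software, and 22.6% to 38.6% of gene probes carried it on an array. T cell genes checked the label of the cells: 13 or 14 of 14 were well above background on every array. Their summed scaled signal, on a linear scale, ran from 407 to 650 in the graft and from 278 to 953 over the day 4 sites. The summed signal of the 9 B cell genes ran from 270.1 to 336 in the graft. On day 4 it ran from 3.02 to 8.00 in blood, 3.30 to 27.4 in liver, 5.89 to 14.1 in lung and 8.04 to 27.9 in intestine. For lists of other cells, counts of genes called lower are given for the mean of the 4 sites, where 19.1% of all tested genes were called lower. The neutrophil list summed to 288 to 498 in the graft and to 0.909 to 113 over the day 4 arrays, with 8 of its 8 tested genes called lower, of which 5 passed the filter through the graft arrays alone. Of the monocyte and macrophage list 1 of 4 tested genes was called lower, and of the dendritic cell list 1 of 4. In both lists that gene passed through the graft arrays alone. The counts were 3 of 5 in the plasmacytoid dendritic cell list, 2 of 2 in the erythroid list and 2 of 4 in the NK cell list. Of these, 1, 2 and 1 passed through the graft arrays alone. Nothing is read from these counts about the lists.

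The comparison of each day 4 site with the graft sets the transferred cells after 4 days in the recipient against the cells before transfer. B cell transcripts were present in the graft samples and most were not well above background on day 4. In the graft 8 of the 9 genes were well above background on 4 of 4 graft arrays, and Pax5 on 0 of 4 with either probe. On day 4, Ms4a1 and Spib were well above background on 0 of 20 arrays, Cr2 and Fcmr on 1, Cd79a on 4 and Ly86 on 5, by the main probe of each gene. Blnk kept a signal well above background on 18 of 20 day 4 arrays and Cd79b on 20 of 20. In bulk samples, fewer cells of a type and less RNA per cell cannot be told apart.

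**Figure D1:**
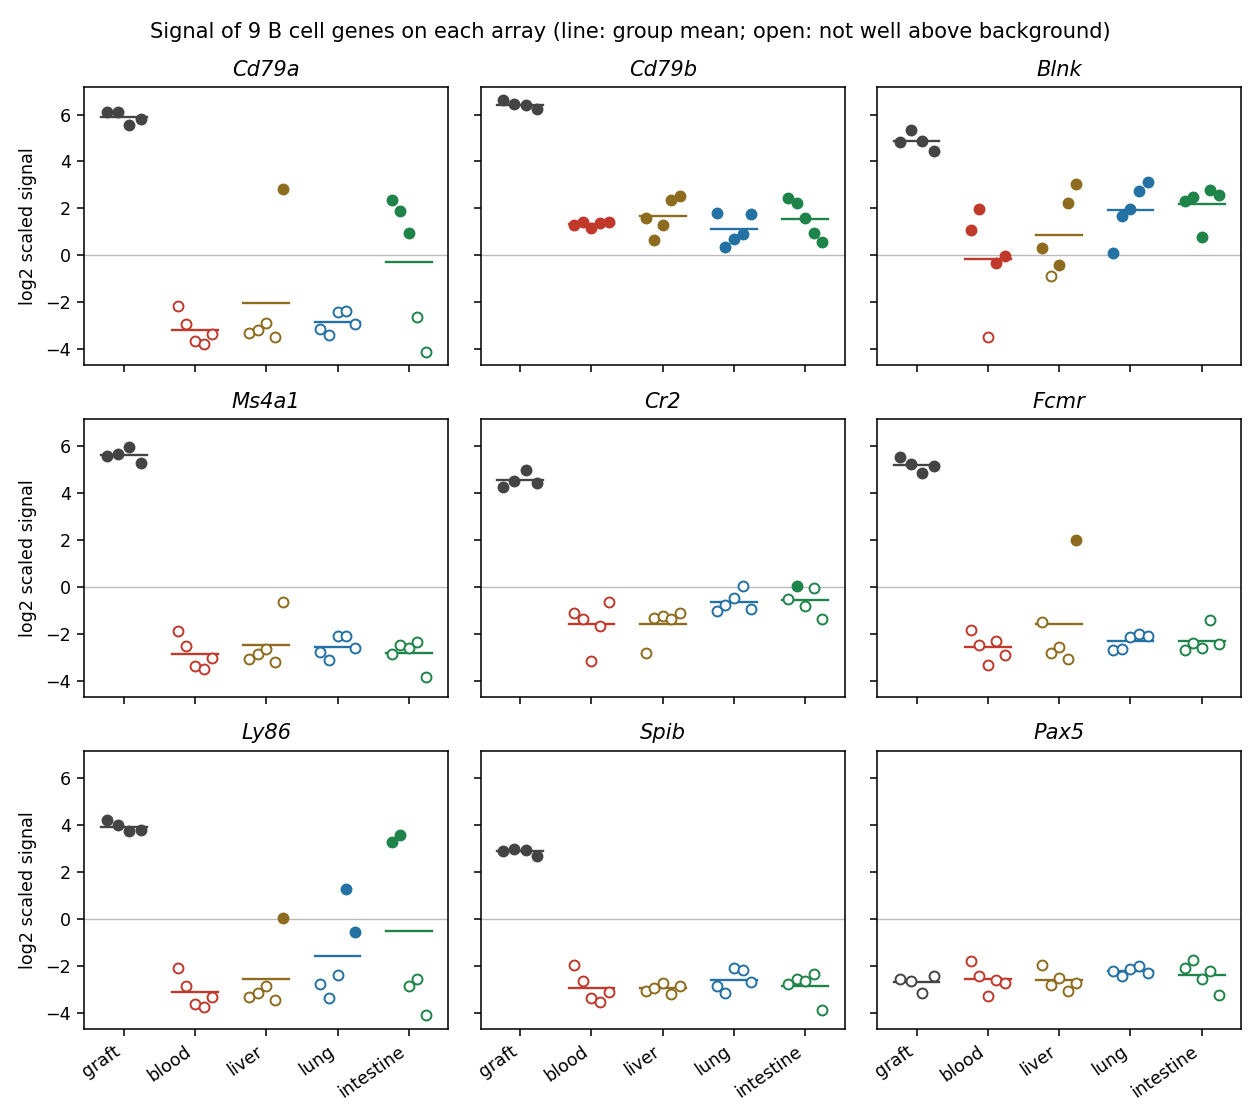
Each panel shows 1 gene, with the log2 scaled signal of each of the 24 arrays by group; filled points are well above background, open points are not, and lines are group means. The 4 graft arrays lie above all 20 day 4 arrays for the 8 genes other than Pax5, and Cd79b and Blnk are the genes with filled points at every site.

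A single limma model over the 24 arrays tested 9508 genes, those with a probe well above background on all arrays, or all but 1, of at least 1 group, and calls were made at a Benjamini-Hochberg adjusted p under 0.05. Of the 9 genes, 8 were tested. Cd79b and Blnk would have been tested on any site alone. The other 6 passed through the graft arrays alone, so they had to be lower on day 4 and their number is no support for a difference. As a description, 8 of 8 were called lower in blood, where 21.3% of all tested genes were called lower. The same 8 of 8 were called lower in liver, against 16.1% of all tested genes, in lung, against 11.6%, and in intestine, against 12.8%. For the equally weighted mean of the 4 sites the count was again 8 of 8, against 19.1%, and the median log2 difference was -5.80 against 0.23 over all tested genes. Every one of the 20 day 4 arrays lay below every graft array in 8 of 8 genes, as in 6.25% of all tested genes. The median over all genes shifts with the scaling, from 0.29 with normexp background correction to -0.32 with centring on the median of the detected probes. The calls over all genes split into 3263 higher and 1820 lower (35.8% lower) in the main setting, against 2079 and 3634 (63.6% lower) with that centring.

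**Figure D2:**
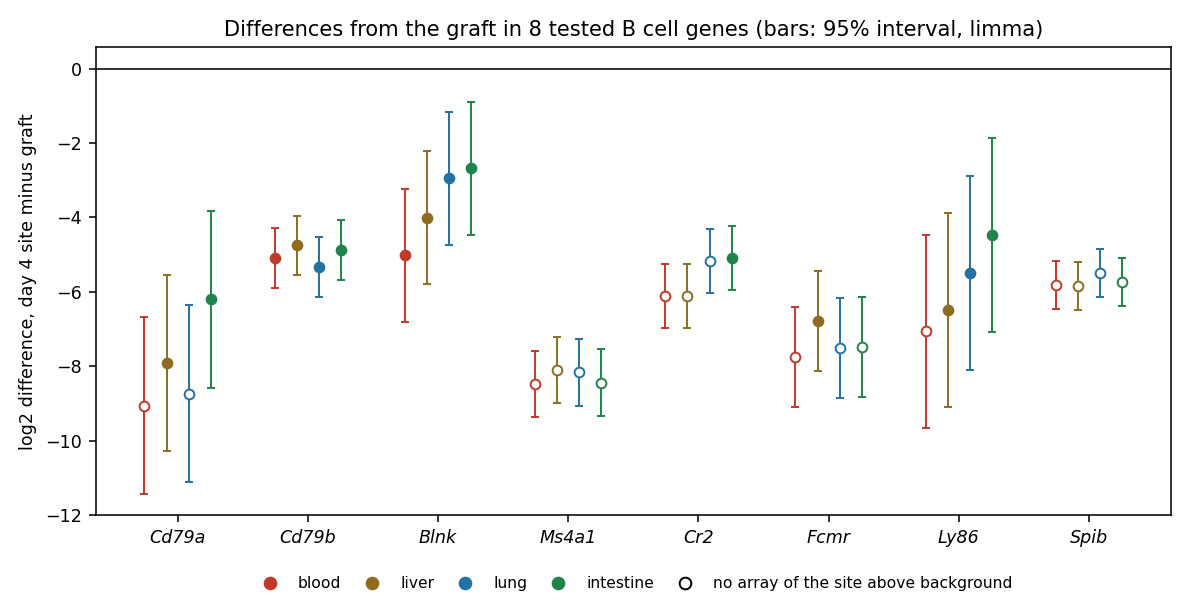
Points are log2 differences of each day 4 site minus the graft for the 8 tested genes, with 95% intervals from limma; open points mark sites with no array above background, where the point is a fitted value and only a bound is given in the text. All intervals lie below 0, and the smallest difference is that of Blnk in intestine, -2.68.

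Of the antigen receptor subunits, Cd79b was the one measured in every group. Cd79b, the signalling chain named Ig-beta, is read at chr11:106172780-106172839 (mm9, minus strand). Its log2 signal was 6.62, 6.45, 6.42 and 6.21 on the 4 graft arrays. In blood it was 1.29, 1.40, 1.18, 1.36 and 1.43, and in liver 1.57, 0.65, 1.30, 2.34 and 2.51. The blood arrays lay close together, the liver arrays spread more widely around a like level, and none came near the graft. In lung the values were 1.80, 0.37, 0.69, 0.89 and 1.75, and in intestine 2.42, 2.23, 1.59, 0.95 and 0.58. The mean of the 4 sites was lower than the graft by a log2 difference of -5.01 (SE 0.32, limma adjusted p = 5.20e-11). By site the difference ran from -5.32 in lung to -4.75 in liver, and no pair of sites was called for it. Since Cd79b was measured on both sides in every group, these are measured differences and no bounds.

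Cd79a, the partner chain Ig-alpha, was called lower at each site by both probes, and the difference between it and Cd79b was not tested. On the graft arrays the brighter probe, annotated on chromosome 12, read 6.10, 6.09, 5.57 and 5.81. All 5 blood arrays (-3.78 to -2.15) and all 5 lung arrays (-3.40 to -2.36) were not well above background, which gives at least 108-fold lower in blood and at least 86.3-fold lower in lung (limma adjusted p = 1.21e-06 and 3.74e-06). These bounds set the graft mean against the lowest signal that counted as well above background on each array. Where the array's own reading of the probe was higher, that reading was used. All bounds were computed in the main setting only. In liver, 4 arrays were not well above background (-3.48 to -2.90) and liver 5 read 2.83. In intestine the arrays read 2.36, 1.89 and 0.96 on arrays 1 to 3, and -2.61 and -4.14 on arrays 4 and 5, not well above background. Liver 5 and these 3 intestine arrays thus lay over the rest of day 4 and under the lowest graft array. The fitted difference for the mean of the 4 sites was -7.98 (SE 0.94, limma adjusted p = 3.32e-07). It was -8.68 without liver 5, intestine 1 and intestine 2, an alternative chosen after seeing the data. Both values rest mostly on arrays not well above background, so they are no measured sizes. The second Cd79a probe, printed above, read 1.29, 0.19, 0.27 and 0.27 in the graft and was not well above background on any of the 20 day 4 arrays, the 4 with a signal in the brighter probe included. It was called lower at each site, at least 2.44-fold for the mean of the 4 sites (fitted log2 difference -3.51, limma adjusted p = 6.36e-10), so the size of the Cd79a difference depends on the probe, and the day 4 signal named Cd79a on liver 5 and intestine 1 to 3 rests on the brighter probe alone.

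Blnk, the adaptor downstream of the receptor, had the smallest fitted difference of the 8 main probes for the mean of the 4 sites (-3.66, SE 0.71). Its probe lies at chr19:41003426-41003485 (mm9, minus strand), and the graft arrays read 4.83, 5.34, 4.85 and 4.44. Blood read 1.09, 1.99, -3.47, -0.35 and -0.02, and liver 0.31, -0.87, -0.40, 2.25 and 3.03, with blood 3 and liver 2 not well above background. Lung read 0.09, 1.69, 1.95, 2.72 and 3.11 and intestine 2.31, 2.47, 0.77, 2.77 and 2.59. No day 4 array reached the lowest graft array, and the lung and intestine arrays lay mostly above those of blood. The log2 difference from the graft was -5.02 in blood (SE 0.87, limma adjusted p = 5.11e-05), -5.80 to -2.21 in liver as a 95% interval (adjusted p = 0.000604), -2.95 in lung (adjusted p = 0.00986) and -2.68 in intestine (adjusted p = 0.0191). The count of genes called lower in intestine was 7 in each of 4 alternatives. The Blnk call there ended without graft 2 (-2.52, adjusted p = 0.0522) and without intestine 3 (-2.33, adjusted p = 0.0540).

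Of the surface proteins, Ms4a1 (CD20) had no day 4 signal well above background, so only bounds are given for it. Its probe, at chr19:11325367-11325426 (mm9, minus strand), read 5.57, 5.67, 5.98 and 5.31 in the graft. On day 4 it ran from -3.82 to -0.62 with a median of -2.70, not well above background on any array, and the highest of these was liver 5. It was at least 90.0-fold lower in blood, at least 91.6-fold in liver, at least 72.1-fold in lung and at least 86.5-fold in intestine (limma adjusted p from 8.55e-12 to 2.02e-11). Cr2, the complement receptor CD21, read 4.28, 4.52, 4.98 and 4.45 in the graft with its brighter probe (chr1:196965532-196965591, minus strand). On day 4 it ran from -3.12 to 0.07 with a median of -1.05, and only intestine 2 (0.03) was well above background. The bounds were at least 40.1-fold lower in blood, 44.8-fold in liver and 32.1-fold in lung. The fitted difference in intestine was -5.09 (SE 0.42, limma adjusted p = 9.55e-09). It rests mostly on arrays not well above background, so it is no measured size. The second Cr2 probe (chr1:196963012-196963071) read 1.48 to 2.09 in the graft and was not well above background on any day 4 array, at least 5.98-fold lower for the mean of the 4 sites.

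Fcmr, the receptor for the Fc part of IgM, was well above background on 1 day 4 array. At chr1:132777256-132777315 (mm9, plus strand) it read 5.55, 5.26, 4.85 and 5.16 in the graft and -3.33 to 1.99 on day 4, with a median of -2.43. That array was liver 5, at 1.99. Fcmr was at least 66.9-fold lower in blood, 53.6-fold in lung and 64.3-fold in intestine. Its fitted difference in liver was -6.79 (SE 0.65, limma adjusted p = 3.84e-08). Only liver 5 was well above background there, so this is no measured size.

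Ly86, the MD-1 protein that B cells share with myeloid cells, was the most uneven on day 4. Its probe lies at chr13:37510701-37510760 (mm9, plus strand), and the graft arrays read 4.21, 3.99, 3.78 and 3.80. The 5 blood arrays (-3.73 to -2.09) were not well above background, at least 27.9-fold lower (limma adjusted p = 7.09e-05). Liver read 0.06 on array 5 and -3.45 to -2.86 on the other 4, and lung read 1.30 and -0.55 on arrays 4 and 5 and -3.35 to -2.36 on the other 3. Intestine read 3.30 and 3.59 on arrays 1 and 2 and -4.10 to -2.57 on the other 3. These last values put intestine 1 and 2 just under the lowest graft array and intestine 3 to 5 with the arrays not well above background, so the intestine mean (-0.52, SD 3.67, n = 5) describes no array of that group. The fitted difference in intestine was -4.47 (SE 1.26, limma adjusted p = 0.00795). It was -1.46 (adjusted p = 0.115) with array weights, -4.47 (adjusted p = 0.0537) when only the graft and intestine were fitted, and -7.12 (adjusted p = 1.10e-06) without liver 5, intestine 1 and intestine 2.

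The transcription factors gave opposite readings in the graft. Spib, an ETS family factor, read 2.91, 2.98, 2.97 and 2.71 there with its probe at chr7:51781392-51781451 (mm9, minus strand). It ran from -3.87 to -1.97 on day 4 (median -2.81) and was not well above background on any of the 20 arrays. It was at least 13.4-fold lower in blood, 14.1-fold in liver, 10.8-fold in lung and 12.9-fold in intestine (limma adjusted p from 8.55e-12 to 4.56e-11). Pax5 was not well above background in the graft by either probe, with -2.53, -2.65, -3.16 and -2.43 for the first and -2.62, -2.78, -3.29 and -2.66 for the second. Of the day 4 arrays only liver 2 was well above background, with the second probe (0.05, at chr4:44658421-44658480, minus strand). Pax5 was therefore not tested, and no direction is given for it.

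Detection was not the same on every day 4 array. Of the 9 genes, 1 was well above background on 2 arrays (liver 2 and blood 3), 2 on 12 arrays, 3 on lung 4, lung 5 and intestine 3, 4 on intestine 1, and 5 on liver 5 and intestine 2. Leaving out Cd79b and Blnk, the other 6 genes gave a signal well above background in 0 of 30 gene and array pairs in blood, 3 of 30 in liver, 2 of 30 in lung and 6 of 30 in intestine. All 3 of the liver pairs were on liver 5, for Cd79a, Fcmr and Ly86.

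**Figure D3:**
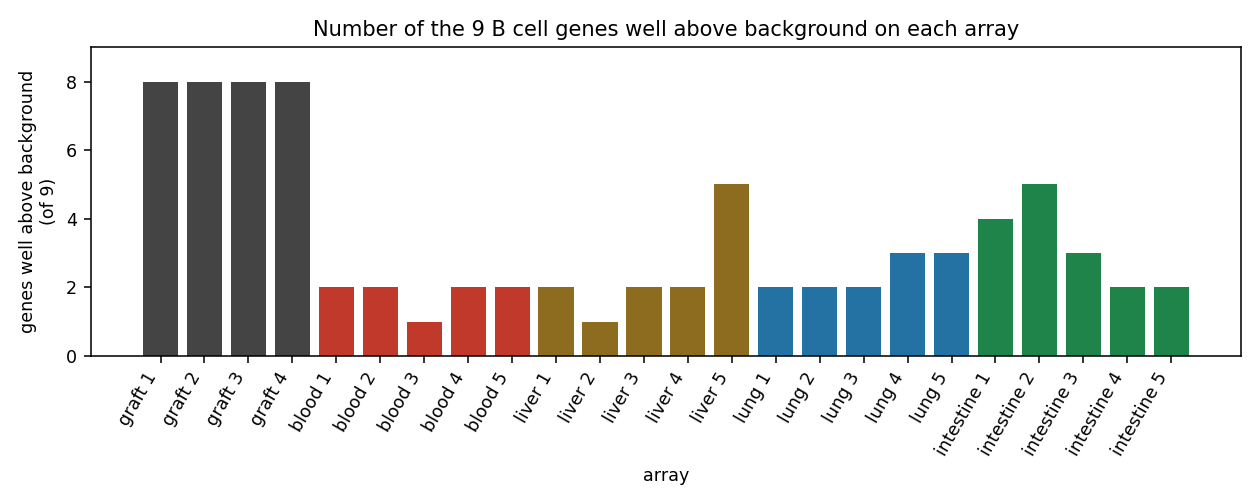
Bars give the number of the 9 genes that were well above background on each of the 24 arrays, coloured by group. The 4 graft arrays have 8 each, and the day 4 arrays have 1 to 5, with 5 on liver 5 and intestine 2.

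Genes of other B lineage stages and of myeloid cells were read on the same arrays. Jchain, the joining chain of polymeric antibodies made by plasma cells, was well above background on liver 5 (4.33) and on intestine 1 to 4 (5.72, 5.37, 4.52 and 2.48), and on no other day 4 array. The 4 day 4 arrays with the brighter Cd79a probe well above background were all among these 5. Jchain reached its graft range (3.74 to 5.69) on liver 5 and intestine 2 and 3 and passed it on intestine 1, while Cd79a stayed below its own graft range on each of them. Mzb1, a protein of antibody-secreting cells, was well above background on intestine 1 and 2 (1.19 and 0.99). Vpreb3, from the list of early B cell genes, was so on liver 5, intestine 1 and intestine 2 (1.60, 1.33 and 0.06).

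Some macrophage genes were well above background on the arrays with Ly86 and others were not. Csf1r, the receptor of macrophage colony-stimulating factor, was well above background on lung 1, 4 and 5 (-0.20, 2.39 and 0.47) and on intestine 1 and 2 (5.39 and 5.85). Ly86 shared 4 of its 5 arrays with Csf1r, and 4 of the 5 arrays of Csf1r had Ly86. On intestine 1 and 2, Csf1r was above its own graft range of 2.30 to 4.29. Adgre1 and Mrc1, surface proteins of macrophages, were well above background on the same 5 arrays as Csf1r. C1qb, a complement chain, was so on intestine 1, 2 and 5 and on no lung array. Marco, a scavenger receptor, was so on 9 day 4 arrays with lung 4 and 5 but without intestine 1 and 2, Cd14 on 18 and Cd68 on 19. Over the 11 monocyte and macrophage genes, 4 to 6 were well above background in the graft, 1 to 3 in blood, 2 or 3 in liver, 1 to 6 in lung and 1 to 9 in intestine. Their summed scaled signal was 12.5 to 48.0 in the graft, 5.03 to 13.0 in blood, 4.87 to 8.13 in liver, 5.27 to 144 in lung and 3.97 to 139 in intestine. H2-Aa, an MHC class II chain of antigen-presenting cells, was well above background on 2 day 4 arrays, intestine 1 and 2 (0.99 and 1.22). Other class II genes were so on more day 4 arrays, H2-Ab1 on 11, H2-Eb1 on 10 and Cd74 on 12, blood 5, liver 2, lung 1 and lung 2 among them. H2-Oa and H2-Ob were so on all 20 day 4 arrays. For the mean of the 4 sites H2-Oa was called lower than the graft (-2.49, SE 0.34). H2-Ob was not called (-0.26, limma adjusted p = 0.462). The MHC class II list summed to 233 to 287 in the graft, 34.4 to 312 in intestine, 58.2 to 191 in lung, 28.5 to 132 in liver and 21.0 to 38.7 in blood. On intestine 1 and 2 the neutrophil list summed to 4.48 and 3.52, with 2 of 9 genes well above background on each, and on liver 5 to 25.3. The part of other cells in the B cell values was not tested.

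**Figure D4:**
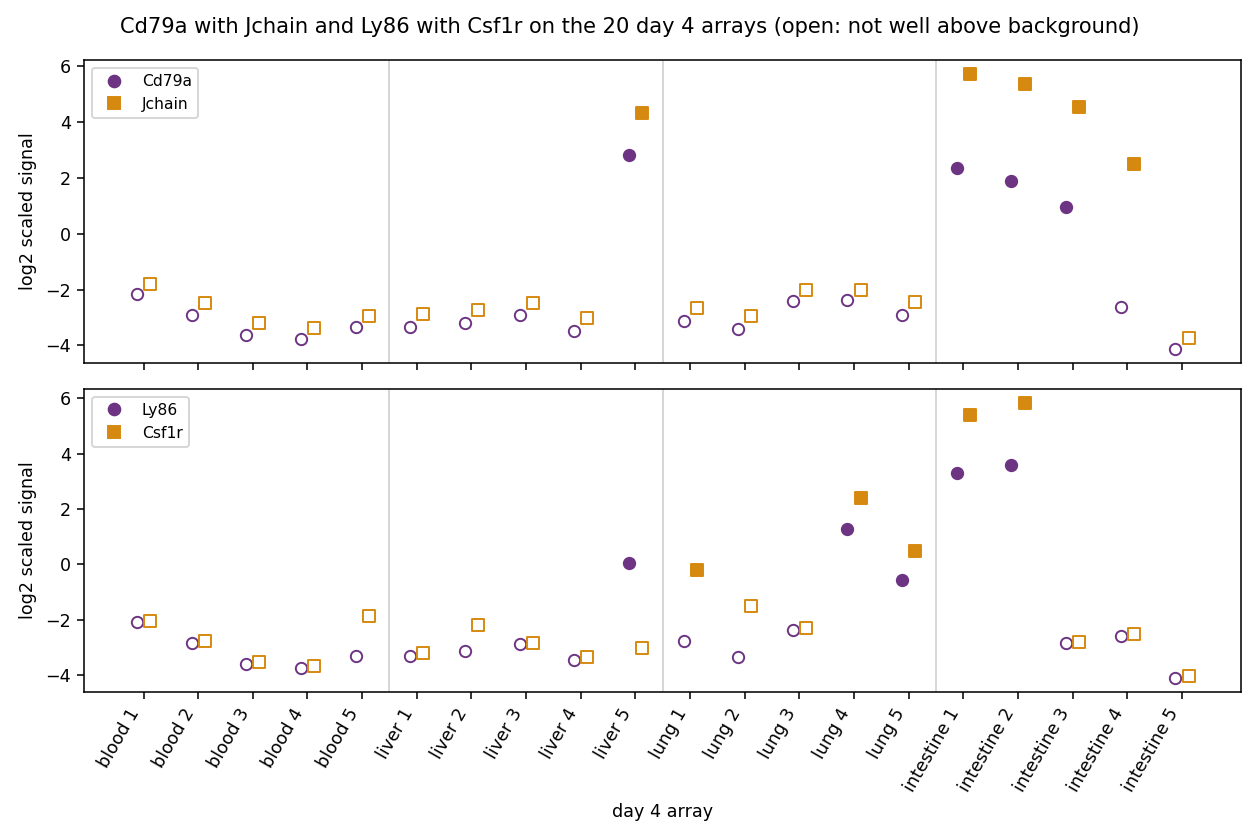
Log2 scaled signal on the 20 day 4 arrays of Cd79a with Jchain (top) and of Ly86 with Csf1r (bottom); filled symbols are well above background, open ones are not, and the heights of different genes are not comparable. Cd79a and Jchain are both filled on liver 5 and intestine 1 to 3, and Ly86 and Csf1r on lung 4, lung 5, intestine 1 and intestine 2.

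Between day 4 sites the 8 tested genes were compared over 6 pairs of sites, 48 comparisons in all, and limma called 0 of them, where 2.56% of the comparisons over all tested genes and pairs were called. At an unadjusted p under 0.05 the count was 9 of 48. In intestine against blood 13.1% of all tested genes were called in either direction. Blnk came nearest there, 2.33 higher on the log2 scale (95% interval 0.64 to 4.02, limma adjusted p = 0.0590). Next were Cd79a at 2.86 (interval 0.62 to 5.10, adjusted p = 0.0749) and Cr2 at 1.03 (adjusted p = 0.0774). No blood array was well above background for Cd79a, Cr2 or Ly86, and 1 intestine array was for Cr2. The sizes of Cd79a and Cr2 are therefore fitted values. All Cd79a values between sites are those of the brighter probe. The second Cd79a probe was not well above background in intestine or blood. The intervals are wide and do not show that the sites are alike. With the replicate number as a block, which on day 4 is also the slide, Blnk was called in that comparison (2.33, adjusted p = 0.0462). With array weights 13 of 48 were called, all with intestine higher, for Blnk, Cd79a, Cd79b, Cr2 and Ly86. Leaving out 1 array called 4 without intestine 5, 2 without liver 5, and 1 each without blood 1, blood 2, lung 1 and intestine 3.

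The rest of the B cell programme was described from lists of 56 other genes, of which 53 were on the arrays and 43 were tested. For the mean of the 4 sites, 24 of the 43 were called lower, 2 higher and 17 were not called, where 19.1% of all tested genes were called lower and 34.3% higher. Of the 43, 13 passed the filter through the graft arrays alone and had to be lower, and 13 of those 13 were called lower. Of the other 30, which passed in a day 4 site too or only there, 11 were called lower. Genes that passed only there, Tcf3 among them, had to be higher. By site the counts of lower and higher were 25 and 3 in blood, where 21.3% of all tested genes were called lower and 35.2% higher. They were 19 and 3 in liver, against 16.1% and 34.4%, 22 and 2 in lung, against 11.6% and 25.8%, and 22 and 2 in intestine, against 12.8% and 22.1%. Surface genes were lower in 10 of 11 tested, of which 5 passed through the graft arrays alone. Fcrla, an Fc receptor-like protein of B cells, was called lower (limma adjusted p = 2.36e-10) and was well above background on 4 of 4 graft arrays and 1 of 20 day 4 arrays, so its size is not given. Tnfrsf13c, the receptor for the survival factor BAFF, was well above background on 10 of 20 and differed by -4.31 (SE 0.34). The surface gene not called was Cd83 (-0.15, adjusted p = 0.842), which is also an activation marker of other cells.

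In receptor signalling 5 of 10 tested genes were called lower, 3 of them with the graft arrays as their only route through the filter, and 5 were not called. Bank1, a scaffold of B cells, was at least 1.57-fold lower, Syk, the kinase that acts on Blnk, was called lower (limma adjusted p = 0.000265), and Plcg2, the phospholipase that Blnk recruits, differed by -2.65 (SE 0.58, adjusted p = 0.000550) with a signal well above background on 17 of 20 day 4 arrays. Syk was well above background on 4 day 4 arrays, liver 5, lung 4, intestine 1 and intestine 2, each of which also had Ly86.

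Of the transcription factors 2 of 7 were called lower, 1 higher and 4 were not called. Of all tested genes 19.1% were called lower and 34.3% higher, and nothing is read from these counts about the list. Pou2af1, the B cell co-activator of octamer factors, differed by -3.14 (SE 0.50, limma adjusted p = 1.89e-05) and was well above background on all 24 arrays, and Bcl11a, which passed through the graft arrays alone, was at least 1.54-fold lower. Tcf3, whose E2A proteins act in B and T cell development, was called higher (adjusted p = 0.000291). It was well above background on 0 of 4 graft arrays and 18 of 20 day 4 arrays. Tcf3 thus passed the filter through day 4 arrays alone and had to be higher, so its call is no support for a difference. Ebf1, which acts with Pax5 in B cell commitment, was well above background on all 24 arrays and was not called (0.25, SE 0.54).

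Early B cell genes were lower in 3 of 5. Dntt and Vpreb3 passed through the graft arrays alone and were well above background on 1 and 3 of 20 day 4 arrays, so no size is given (limma adjusted p = 1.26e-07 and 7.10e-06). Igll1, a surrogate light chain, differed by -0.61 (limma adjusted p = 0.0414). The Igll1 call ended in 16 alternatives, among them each fit without 1 graft array. Among marginal zone genes Dtx1 was lower (-2.64, SE 0.35) and Cd9, a tetraspanin also found on other cells, higher (2.19, SE 0.30, limma adjusted p = 3.09e-06). Plasma cell genes were lower in 2 of 6, Mzb1 and Tnfrsf17, the receptor BCMA, both of which passed through the graft arrays alone, so that count was set by the filter. Of the 4 plasma cell genes that did not, 0 were called lower. Irf4, which activated T cells also use, was not called (1.16, adjusted p = 0.0812). Jchain, the one immunoglobulin-related gene tested, was called lower in blood, liver and lung (limma adjusted p = 0.000181, 0.00147 and 0.000485). It was not called in intestine (-1.85, SE 1.45, adjusted p = 0.334), and it was called higher in intestine than in blood (5.63 fitted, adjusted p = 0.0156), where no blood array was well above background.

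The genes most like the B cell set over the arrays were ranked by Pearson's r with the mean of the standardised values of the 8 tested genes over the 24 arrays. The graft and day 4 arrays form separate clusters, so r follows that split, and r within the 20 day 4 arrays is given beside it as a description. Values not well above background on an array share its scaling divisor. The highest was Fcrla (0.978, and 0.871 within day 4), followed by Armcx3 (0.963 and 0.799), and the 15 highest also held Gm4146, Hcar2, Gm10914, D13Ertd608e, Nhlh1, Trem1, Kmo, Mzb1, 6330407A03Rik, D2Bwg0886e, Mthfsd and Grn (0.945 and 0.781). Of these 15, 3 were in the B lineage lists. Among the B cell genes themselves, r with the mean of the others over 24 arrays ran from 0.768 for Blnk and 0.844 for Ly86 to 0.965 for Ms4a1. Within day 4 it ran from 0.394 for Cd79b to 0.755 for Ms4a1.

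The 4 graft arrays were on 1 slide of their own and the 5 day 4 slides held 1 array of each site, so slide and group cannot be told apart in the comparisons with the graft.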

How the data were processed

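RNA of 24 samples was measured on 1-colour Agilent arrays, 1 array per sample. The authors deposited Feature Extraction files (version 10.7 per the submitters' processing notes, 9.5.1.1 per the file headers) with the processed signal as a linear intensity, background-subtracted and detrended, not normalised between arrays. They also deposited a log2 table, which matched quantile-normalised values centred per probe (lowest correlation 0.99999, column medians -0.03 to 0.03) and served as an alternative. Probes were named through the RefSeq gene table by accession (27508), symbol (3537) or synonym (402), 1808 kept the file's name and 6174 had none. Spots flagged non-uniform were left out and spots of a probe averaged, and log2 signal, less the 75th percentile of gene probes on that array, was fitted with limma 3.58.1 in R 4.3.3, with 1 mean per group. The brightest tested probe stood for a gene. On simulated data with 9508 genes, the contrast of the 4 sites with the graft recovered 38% of genes lower by 1 log2 unit and 90% of those lower by 2. In that simulation 200 genes were changed, noise was independent, and there was no background floor or slide effect. The real contrast called 5083 genes, so these rates do not give the recovery in the fits above. Members and lists were chosen with earlier results of these data known. Named genes are the members, up to 3 genes of each B lineage list with the smallest adjusted p for the mean of sites, those called higher, and the 15 highest correlations. For lists of other cells the rule took the 3 brightest genes, and genes named beyond it (Csf1r, H2-Aa, Cd83, Ebf1) were chosen after their values were seen. Of the genes the rule takes, 1 is not reported here. The number of arrays limits the precision.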

Additional observations from a re-analysis of the deposited data

Results flagged for a closer look

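A Dixon test of the highest or lowest array was run on the 8 tested genes and 1 probe of Pax5 in groups of 4 or 5 arrays, 45 groups in all, and 7 stood apart, where chance gives about 1 in 20. On liver 5 these were Cd79a (2.83), Ly86 (0.0604) and Ms4a1 (-0.62). The first pair was well above background there and on no other liver array, and Ms4a1 was not. Blnk on intestine 3 (0.77) was low, though well above background. The other 3 were values not well above background, Cr2 on liver 1 (-2.79), Fcmr on intestine 4 (-1.39) and Spib on intestine 5 (-3.87).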

How the results depend on the processing

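Over scaling, background correction, filter, probe choice, array weights, slide, samples and leaving out each array, 1552 alternative values of the 40 log2 differences between site and graft were computed. All kept their sign, and 1548 kept their call. For the 6 genes that passed through the graft arrays alone, the filter set the sign in advance. Their part of these values and of the counts below is therefore no support for a difference. No alternative separates slide from group in the comparisons with the graft. The 4 lost calls were the Blnk and Ly86 values in intestine given beside those results. The count of genes called lower was 8 in every alternative for blood, liver, lung and the mean of sites, and 8 in intestine apart from these 4, where it was 7. The count of other B lineage genes called lower ran from 19 to 31. The largest change in size was that of Cd79a with its second probe, -3.54 in blood against -9.06 and -3.51 against -7.98 for the mean of sites. Sizes of other genes changed too. Over the alternatives the fitted difference in blood ran from -9.10 to -5.51 for Ms4a1 and from -8.38 to -5.17 for Fcmr. The bounds in folds belong to the main setting, and the smallest of these alternative differences fall short of them. The count of calls between day 4 sites was 13 with array weights, 1 with slide as a random block, 1 with the replicate block, and 0 to 4 when leaving out 1 array. Same-number correlations ran from -0.41 to 0.57, with 23 of 46 above 0.1, and do not settle whether replicate numbers pair the samples. The 46 pairs include those with the graft, which shared no slide with day 4. The block changed no other call of the 8 genes and ended that of Igll1. Of 31 other named genes 1156 of 1176 alternative values kept their call, 16 lost it (Igll1) and 3 gained it (Irf4). Cd1d1, not called in either setting, was 0.0657 with normexp. Dim probes limit what can be said: on day 4 most values of Cd79a, Ms4a1, Cr2, Fcmr, Ly86 and Spib are bounds.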
